A study of Sus scrofa with 14 samples.

Results

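The comparison described here sets omental fat against subcutaneous fat in the pig. It used 7 of the 14 samples of the series, namely the RNA-seq libraries of the greater omentum (GOM, a visceral depot hanging in the abdominal cavity) and of the upper layer of backfat (ULB, a subcutaneous depot). Wild boar contributed 2 GOM libraries (WB-GOM-1 and WB-GOM-2) and 2 ULB libraries (WB-ULB-1 and WB-ULB-2), and Bama pig, a Chinese miniature breed, contributed 2 GOM libraries (BM-GOM-1 and BM-GOM-2) and 1 ULB library (BM-ULB-2). All pigs were untreated, fasted females of 2 years, kept on the same farm with the same feeding, and the wild boars had been taken into captivity when young. Each breed was represented by 2 animals, so the p-values describe the spread among these 7 libraries, and libraries of both depots came from the same pigs. The main test did not pair them, because the labels do not say that replicate numbers mark animals. A fit with a replicate block is given at the end. Of 21280 protein-coding genes listed, 15738 had a level above 0.1 TPM (transcript abundance scaled for gene length and sequencing depth) in every library of at least one depot and were tested, 633 of them passing only through GOM and 942 only through ULB.

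Adipose depots differ in embryonic origin. Omental fat forms within a fold of the peritoneum and is covered by mesothelium, an epithelium-like sheet that descends from cells expressing WT1, whereas subcutaneous fat develops under the skin from mesenchyme patterned by limb and trunk regulators. Fat cells of both depots store triglyceride and secrete adipokines, but omental fat also carries immune cell aggregates that filter the peritoneal fluid, and the transcription factors that specify position are known to remain expressed in adult adipose tissue.

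Library totals ranged from 10833153 estimated counts in BM-ULB-2 to 18627076 in BM-GOM-1. Adipocyte identity was plain in every library: ADIPOQ, which encodes the fat-cell hormone adiponectin, had a TPM of 2387 to 5332 in GOM and 3040 to 4609 in ULB. Other tissues were visible in some libraries. The 13 tested skeletal muscle markers summed to 699 TPM in WB-ULB-1 and to between 28.1 and 135 in the other 6 libraries, of which BM-GOM-1 was highest. The troponin gene TNNI2 reached 120 TPM in WB-ULB-1 and 2.23 at most elsewhere. The 18 liver markers summed to 1793 TPM in BM-GOM-2, 691 in BM-GOM-1 and 334 in BM-ULB-2, against 199 to 275 in the 4 wild boar libraries. Albumin (ALB) was at 873, 293 and 77.7 TPM in those Bama pig libraries and at most 6.60 in wild boar. Red blood cell genes summed to 12635 and 7933 TPM in the wild boar GOM libraries and to at most 2322 elsewhere. The part of these tissues in the depot differences was not tested, except that the counts below are also given without WB-ULB-1. BM-GOM-1 had a rank correlation over tested genes of 0.927 with BM-ULB-2 and of 0.933 with BM-GOM-2.

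**Figure D1:**
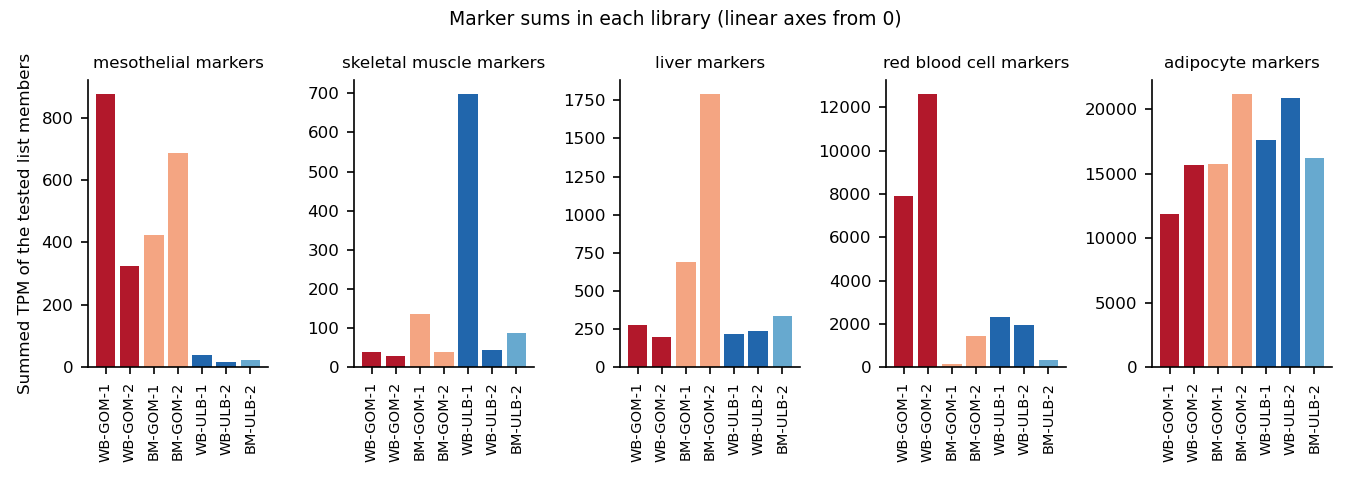
Summed TPM of 5 marker lists (vertical axes, linear and starting at 0) in each of the 7 libraries (bars; no error bar, since each bar is 1 library). Mesothelial markers stood at 324 TPM or more in the 4 GOM libraries and at 38.5 or less in the 3 ULB libraries, while muscle markers peaked in WB-ULB-1, liver markers in BM-GOM-2 and red blood cell markers in the wild boar GOM libraries.

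Between depots, 438 genes were higher in GOM (2.78% of those tested) and 244 were higher in ULB (1.55%), at an adjusted p below 0.05 (edgeR quasi-likelihood test with breed as a covariate) and an absolute log2 fold change above 1. Fold changes below are log2 values of GOM over ULB, with a standard error (SE), so that a negative value is higher in ULB. The median over all genes tested was 0.04, over the genes called higher in GOM 2.36, and over those called higher in ULB -2.46. Together they were 682 genes (4.33%), and differences of more than 8-fold made up 161 and 84 of the calls in the 2 directions. The TPM levels of the 4 GOM and the 3 ULB libraries did not overlap for 416 and 200 of them, as for 9.26% and 2.93% of all genes tested, and TMM-scaled CPM (counts relative to library size) did not overlap for 403 and 218, as for 8.62% and 6.44%. Without WB-ULB-1, the library with muscle RNA, 174 and 102 genes were called, of which 169 and 100 were among those called with all libraries. Leaving out another ULB library also lowered the counts, to 206 and 138 without WB-ULB-2 and to 170 and 74 without BM-ULB-2. The low side of 13 called genes had no count in any library and that of 31 more had 1 to 3 counts, and for these the text gives a lower bound set by a floor of 3 counts over the depot, or the ratio of normalized counts with its 95% interval. Intervals and floors cover counting error only.

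Developmental transcription factors were among the largest differences in both directions. Of 14 tested factors of visceral patterning, 10 were higher in GOM and 0 in ULB, with a median log2 fold change of 6.05, and each of the 14 had a higher GOM level in both breeds, as 35.9% of all genes did. Of 15 tested factors of subcutaneous patterning, 11 were higher in ULB and 0 in GOM, with a median of -3.66, and 14 lay on the ULB side in both breeds, as 29.7% of all genes did. The shares called were 71.4% and 73.3%, where 4.33% of all genes were called. Since 9 of the 14 and 7 of the 15 passed the filter on low values through 1 depot only, the direction and the median were partly fixed by that filter. Both lists were also chosen with earlier results of these data known, so their counts describe the members and are not a test. With any 1 library left out, 9 or 10 members of the visceral list were called, NKX2-5 being lost without WB-GOM-1 or any of the ULB libraries, while the subcutaneous list had 5 calls without BM-ULB-2, 9 without WB-ULB-1 and 10 or 11 otherwise.

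WT1, a zinc-finger factor of mesothelium and its derivatives, was measured at 72.9 and 19.9 TPM in WB-GOM-1 and WB-GOM-2, at 83.7 and 46.1 in BM-GOM-1 and BM-GOM-2, at 0 and 0.103 in wild boar ULB and at 0.253 in the Bama pig ULB library. The depots were far apart in both breeds, with a log2 fold change of 8.77 (SE 0.76, adjusted p = 0.000405), or 10.10 in wild boar and 7.47 in Bama pig. GATA5, a zinc-finger factor of heart and endoderm-derived tissue development, was measured at 22.5 and 9.24 TPM in the wild boar GOM libraries and at 16.3 and 16.4 in those of Bama pig. Each ULB library held 1 read of it, and the ratio was 338 (95% interval 115 to 1639, adjusted p = 9.31e-05). Its relative GATA6, a regulator of visceral mesoderm, was the more evenly spread of the pair, with 42.5, 21.7, 35.6 and 26.2 TPM in GOM and 1.94, 1.69 and 0.831 in ULB (log2 fold change 4.47, SE 0.33, adjusted p = 0.000146).

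TCF21, a factor of visceral mesenchyme and fibroblasts, was at 8.19, 3.07, 8.63 and 8.34 TPM in the GOM libraries, with a single read in WB-ULB-2 as its total in ULB, a ratio of 293 (interval 52.3 to 11596, adjusted p = 0.00109). ISL1, a LIM homeobox factor, ranged from 2.52 to 7.46 TPM in GOM and had a single read in BM-ULB-2, a ratio of 338 (interval 60.5 to 13386, adjusted p = 0.0012). BNC1, a zinc-finger factor of squamous and mesothelial cells, spanned 5.98 to 15.8 TPM in GOM and was at 0, 0 and 0.169 in ULB (log2 fold change 7.65, SE 0.80, adjusted p = 0.001). HAND2, a basic helix-loop-helix factor of lateral mesoderm, spanned 10.8 to 26.4 TPM in GOM and reached 0.948 in ULB (5.63, SE 0.82, adjusted p = 0.00547). The homeobox factors BARX1, NKX2-3 and NKX2-5, known from stomach, gut and spleen, and heart development, completed the 10 called members. Their ratios were 99.2 (interval 27.2 to 823, adjusted p = 0.00382), 113 (interval 31.1 to 939, adjusted p = 0.00531) and 33.2 (interval 5.70 to 1336, adjusted p = 0.024). FOXF1, TBX3, NR2F2 and NR2F1 were not called, and NR2F2 had a log2 fold change of 0.84 (SE 0.41, adjusted p = 0.28).

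In ULB the factors were those of body wall, limb and neural crest patterning. ZIC1, a zinc-finger factor of dorsal mesoderm and neural crest, was listed at 0 in all 4 GOM libraries and at 23.0, 12.1 and 2.59 TPM in WB-ULB-1, WB-ULB-2 and BM-ULB-2, at least 300.3-fold higher in ULB (adjusted p = 0.00195). Its neighbour and relative ZIC4, also without a count in GOM, was at 2.90, 0.841 and 0.618 TPM, at least 87.2-fold higher in ULB (adjusted p = 0.0101), a call lost without BM-ULB-2. Both genes had their lowest ULB level in the Bama pig library, and ZIC4 is not a member of the subcutaneous list. Iroquois homeobox factors, which subdivide body segments, lay on the same side. IRX2 was at 2.56, 3.37 and 4.82 TPM in ULB with a single read in GOM, a ratio of 343 in favour of ULB (interval 60.9 to 13614, adjusted p = 0.000633). IRX1 (log2 fold change -5.12, SE 0.89, adjusted p = 0.0119), IRX5 (-3.66, SE 0.60, adjusted p = 0.00917) and IRX3 (-2.35, SE 0.43, adjusted p = 0.0145) were higher in ULB as well. IRX5 and IRX3 did not overlap between the depots, and IRX1 was among the largest differences, which were chosen not to overlap.

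EN1, an engrailed homeobox factor of dorsal dermis and limb, was at 7.12, 3.16 and 4.44 TPM in ULB and at 0.138 or less in GOM (-6.78, SE 0.82, adjusted p = 0.00197). PRRX1, a paired-related factor of limb and skin mesenchyme, was the most abundant member, with 73.3, 37.5 and 45.4 TPM in ULB against 6.34, 4.62, 8.42 and 4.36 in GOM (-3.23, SE 0.33, adjusted p = 0.000912). EMX2 (-5.04, SE 0.80, adjusted p = 0.00791), TBX5 (-4.56, SE 0.85, adjusted p = 0.0162), SIM1 (-4.53, SE 0.62, adjusted p = 0.00391) and SHOX2 (-3.13, SE 0.53, adjusted p = 0.0103) were higher in ULB too. These 4 factors are known from urogenital, forelimb, hypothalamic and limb development. Without BM-ULB-2 the list had 5 calls instead of 11. The calls of EMX2 and IRX1 were among those lost, with the direction kept, while ZIC1, IRX2 and EN1 kept theirs. TBX18, MEOX2, PRRX2 and MEOX1 were not called.

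**Figure D2:**
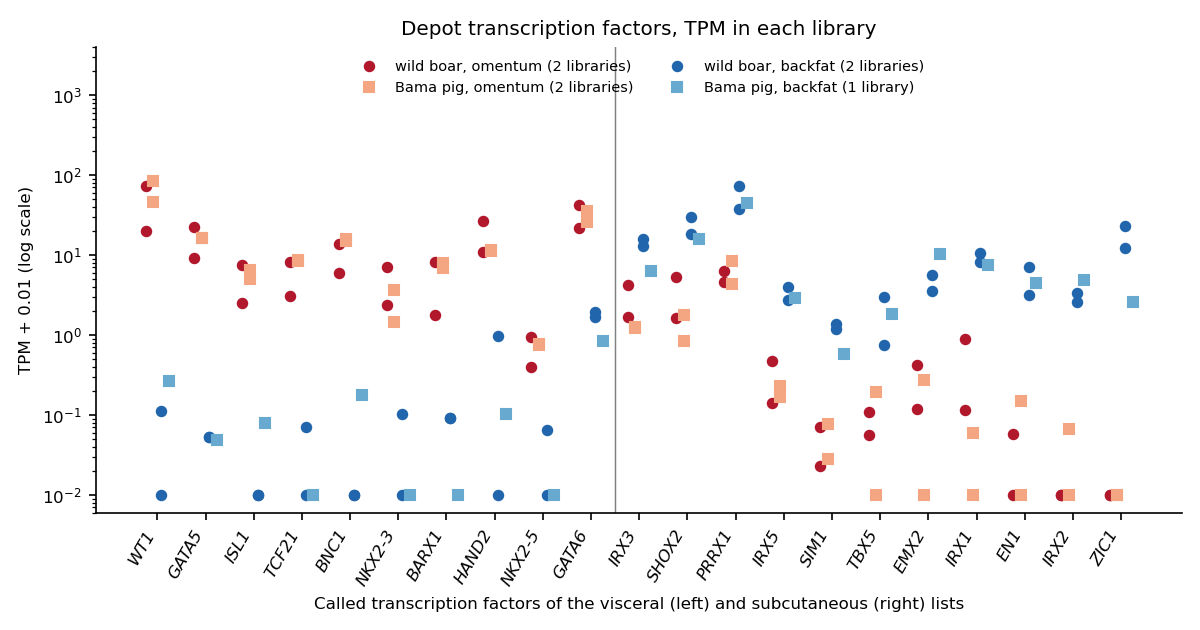
TPM of the 10 visceral and 11 subcutaneous factors called, in each library (points; vertical axis logarithmic, with the small constant named on the axis added so that libraries at 0 can be drawn). For each factor the GOM points (reds) and the ULB points (blues) stand apart in both breeds, with many low-side libraries at 0.

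The promoter windows of WT1 and GATA5, higher in GOM, and of ZIC1 and IRX2, higher in ULB, are shown. In each factor list these were the 2 named members with the largest fitted fold changes. Each window runs from 250 bases before to 50 after the start of the gene in the RefSeq annotation of Sscrofa11.1, 5′ to 3′ on the strand of the gene, and capitals mark the E-box CAGCTG where it occurs. WT1 lies on the plus strand (chr2:28411217-28411516), GATA5 on the minus strand (chr17:61834693-61834992), ZIC1 on the plus strand (chr13:87740519-87740818) and IRX2 on the plus strand (chr16:78305619-78305918).
WT1: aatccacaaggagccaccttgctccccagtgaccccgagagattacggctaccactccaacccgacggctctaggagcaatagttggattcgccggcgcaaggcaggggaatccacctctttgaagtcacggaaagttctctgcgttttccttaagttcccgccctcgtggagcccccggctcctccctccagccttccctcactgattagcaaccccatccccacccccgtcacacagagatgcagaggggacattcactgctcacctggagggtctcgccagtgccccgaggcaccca
GATA5: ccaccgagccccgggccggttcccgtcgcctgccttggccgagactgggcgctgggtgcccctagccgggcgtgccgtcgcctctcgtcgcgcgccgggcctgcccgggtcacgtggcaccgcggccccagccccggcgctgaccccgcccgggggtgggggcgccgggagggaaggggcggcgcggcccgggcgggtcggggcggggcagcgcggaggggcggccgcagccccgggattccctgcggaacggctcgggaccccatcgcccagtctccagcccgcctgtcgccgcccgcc
ZIC1: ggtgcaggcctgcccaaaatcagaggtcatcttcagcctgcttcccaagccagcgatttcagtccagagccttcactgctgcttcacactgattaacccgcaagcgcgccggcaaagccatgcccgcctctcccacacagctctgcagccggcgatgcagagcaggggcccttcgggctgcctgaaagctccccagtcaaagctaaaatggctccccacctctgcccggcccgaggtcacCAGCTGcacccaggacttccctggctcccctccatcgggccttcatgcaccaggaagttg
IRX2: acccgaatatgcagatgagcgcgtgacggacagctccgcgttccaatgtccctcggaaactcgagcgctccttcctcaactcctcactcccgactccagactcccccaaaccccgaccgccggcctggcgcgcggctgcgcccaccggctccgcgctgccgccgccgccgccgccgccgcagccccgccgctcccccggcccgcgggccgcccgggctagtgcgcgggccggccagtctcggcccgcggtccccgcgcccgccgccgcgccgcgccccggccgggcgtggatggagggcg
The GC content of these windows was 60.3% for WT1, 82.7% for GATA5, 62.3% for ZIC1 and 78.7% for IRX2. They held 15, 46, 12 and 52 CpG dinucleotides, with observed over expected ratios of 0.58, 0.90, 0.43 and 1.17. In these windows CpG density therefore did not separate the GOM pair from the ULB pair. Across all placed genes, an observed over expected CpG ratio above 0.6 was found for 51.0% of the 347 genes called higher in GOM and 49.5% of the 194 called higher in ULB, against 66.6% of all 11719 placed genes. The letters AGATAA or TGATAA, which GATA factors are known to bind, on either strand, were in 12.1% of the windows of genes higher in GOM, 15.98% of those higher in ULB and 11.4% of all windows. The palindrome CAGCTG, whose last 2 letters can be the first of TGATAA, was in 20.5%, 12.9% and 15.5%.

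Some called genes lay side by side on the chromosome. Among the 194 placed genes higher in ULB, 26 (13.4%) had a called gene of the same direction directly beside them among tested genes, where 3.25% of all placed genes had such a neighbour. Among the 347 placed genes higher in GOM, 24 (6.92%) had one, against 5.78% of all placed genes. The runs in ULB included ZIC4 and ZIC1 (chr13:87725642-87750258), IRX1 and IRX2 (chr16:77695704-78322776), HOXC9 and HOXC8 (chr5:19212490-19225734) and the 4 genes MMP2, IRX6, IRX5 and IRX3 (chr6:30059247-31049067). In GOM they included TCF21 with EYA4, a transcriptional coactivator (chr1:29975280-30575593), and HOXB5 with HOXB6 (chr12:24845224-24853494). Genes of one run share a locus and are not separate evidence, and IRX6 and EYA4 are named for their place in a run, after their values were seen.

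HOX genes give cells their position along the body axis. Of 24 tested members of 34 listed, 4 were higher in GOM and 3 in ULB, and the median was -0.44. The share called was 29.2%, against 4.33% of all genes. All 4 on the GOM side were HOXB genes. HOXB6 was at 15.9, 8.35, 28.7 and 31.4 TPM in GOM and at 3.17, 3.07 and 2.17 in ULB (2.58, SE 0.39, adjusted p = 0.0061), and HOXB5 (3.32, SE 0.65, adjusted p = 0.0204), HOXB8 (3.40, SE 0.69, adjusted p = 0.0235) and HOXB4 (1.70, SE 0.42, adjusted p = 0.0492) lay on the same side. The adjacent HOXB7 was not called (0.82, SE 0.31, adjusted p = 0.17). The ULB side held HOXC9, HOXC8 and HOXD8. HOXD8 was the most abundant, at 79.1, 78.5 and 52.8 TPM in ULB against 7.65 to 12.2 in GOM (-2.87, SE 0.25, adjusted p = 0.000438). HOXC9 reached 0.402 TPM at most in GOM and was at 6.36, 6.96 and 3.49 in ULB (-4.44, SE 0.71, adjusted p = 0.00808), and HOXC8 was less separated (-2.71, SE 0.44, adjusted p = 0.0083). Without 1 library the calls ranged from 1 to 3 in each direction, with 1 GOM call without WB-GOM-1 or any of the ULB libraries and 1 ULB call without BM-ULB-2. HOX transcripts overlap within clusters, and reads of overlapping or antisense transcripts cannot be told apart in these counts.

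Mesothelial genes were mostly higher in GOM. Of 12 tested members (13 of the 20 listed genes are named in the tables), 9 were higher in GOM and 0 in ULB, with a median of 4.62, and their summed level was 876, 324, 423 and 686 TPM in GOM against 38.5, 18.2 and 23.4 in ULB. The share called was 75.0%, against 4.33% of all genes. Of the 12, 4 passed the filter through 1 depot only, and WT1 and BNC1 are also among the visceral factors. This list too was chosen with earlier results of these data known, so its counts are not a test. In bulk tissue, fewer cells of a type and less RNA per cell cannot be told apart. UPK1B, a tetraspanin of urothelium and mesothelium, was at 104, 52.8, 54.3 and 53.3 TPM in GOM and at 0.381, 0 and 0.871 in ULB (7.23, SE 0.79, adjusted p = 0.00117). GPM6A, a membrane glycoprotein of neurons and mesothelium, was at 170, 76.7, 93.7 and 140 TPM in GOM and at 2.53 or less in ULB (5.94, SE 0.38, adjusted p = 9.31e-05). GPM6A separated the depots in every library, and UPK1B was among the largest differences, which were chosen not to overlap.

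Keratins of simple epithelia were split within the list. KRT8 was at 363, 92.3, 89.2 and 350 TPM in GOM and at 10.6, 2.54 and 4.93 in ULB (5.14, SE 0.77, adjusted p = 0.0061), and KRT7 at 66.9, 40.6, 29.8 and 26.7 against 5.79, 0.432 and 0.0712 (4.84, SE 0.86, adjusted p = 0.0128). KRT18, the usual partner of KRT8, was not called, with a log2 fold change of 0.11, and CDH3 and KLK11 were not called either. PKHD1L1 (4.39, SE 0.45, adjusted p = 0.000878), the tight junction gene CLDN15 (1.81, SE 0.32, adjusted p = 0.0127) and the phosphatase gene PTPRF (1.51, SE 0.28, adjusted p = 0.0146) were higher in GOM. Without 1 library the list kept 6 to 9 calls, 6 of them without BM-ULB-2 and 7 without WB-ULB-1.

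Among the 15 largest differences on the GOM side with symbols, no overlap between depots and an average level in GOM of 1 TPM or more were further genes that are in no list. SERPINE3, a serine protease inhibitor family member, was at 32.8, 14.3, 24.5 and 20.3 TPM in GOM with 0, 0 and 0.115 in ULB, a ratio of 532 (interval 147 to 4394, adjusted p = 0.000405). SERPINB2, an inhibitor of plasminogen activators, was at 25.2, 15.5, 2.80 and 12.5 against 0.136 or less, a ratio of 174 (interval 59.3 to 845, adjusted p = 0.00116). LGI2, a secreted leucine-rich protein, was at 6.96 to 13.7 TPM in GOM, a ratio of 183 (interval 62.4 to 889, adjusted p = 0.000405). SERPINB2 was lowest of the GOM libraries in BM-GOM-1. The sulfotransferase gene GAL3ST3 (at least 65.1-fold, adjusted p = 0.0067), the GABA receptor subunit gene GABRA4 (at least 54.7-fold, adjusted p = 0.0129), the germ-cell homeobox gene NOBOX (at least 41.9-fold, adjusted p = 0.0394) and the meiotic gene MEI4 (at least 15.96-fold, adjusted p = 0.0483) had no count in ULB. Of these, NOBOX and MEI4 kept their call in only 7 and 4 of 14 alternative settings, and GABRA4 lost its call without BM-ULB-2.

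On the ULB side the largest differences that are in no factor list, beside ZIC4, included genes of matrix and secreted proteins. COMP, a pentameric cartilage and tendon matrix protein, had no count in GOM and was at 19.9, 7.18 and 0.496 TPM in ULB, at least 376-fold higher (adjusted p = 0.00382), with its lowest ULB level in BM-ULB-2. THBS4, a thrombospondin of tendon and muscle, was at 92.7, 161 and 30.4 TPM in ULB and at 0.702 to 2.59 in GOM (-5.76, SE 0.39, adjusted p = 9.68e-05). ANGPTL5, a secreted angiopoietin-like protein, was at 24.9, 64.8 and 0.652 TPM in ULB and was seen in GOM only in WB-GOM-2, at 0.353 (-7.28, SE 0.85, adjusted p = 0.00158). The 3 genes were lower in BM-ULB-2 than in either wild boar ULB library.

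FGF10, a growth factor of mesenchyme that supports adipocyte precursors, was at 14.2, 64.0 and 35.5 TPM in ULB and at 0.725 to 1.25 in GOM (-5.34, SE 0.46, adjusted p = 0.000405). RXFP2, a relaxin family receptor, was at 2.43, 5.85 and 3.33 against 0.237 or less (-5.20, SE 0.60, adjusted p = 0.00156). MMP1, an interstitial collagenase, had a ratio of 74.4 in favour of ULB (interval 20.0 to 623, adjusted p = 0.0263), and DMC1, a meiotic recombinase, of 27.4 (interval 7.04 to 235, adjusted p = 0.0206). MMP1 and DMC1 were the less stable pair, with 10 and 8 of 14 settings keeping the call.

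Retinoic acid genes differed in opposite ways along the pathway. Of 17 tested, 5 were higher in GOM and 2 in ULB (41.2% called, against 4.33% of all genes), and the median was 0.99. On the GOM side were synthesis and supply genes. ALDH1A2, the main retinoic acid synthesising enzyme of mesoderm and mesothelium, was at 138, 101, 137 and 164 TPM in GOM and at 5.22, 7.79 and 7.55 in ULB (4.18, SE 0.30, adjusted p = 0.000142). The retinol carrier RBP4 (1.5, SE 0.25, adjusted p = 0.00995), the retinol dehydrogenase gene RDH10 (1.41, SE 0.34, adjusted p = 0.0483) and ALDH1A3 (1.39, SE 0.27, adjusted p = 0.0198) were higher in GOM too. RBP4 was at 123 to 146 TPM in GOM and 28.8 to 67.6 in ULB.

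On the ULB side were CRABP2, which carries retinoic acid to its nuclear receptor, and CYP26B1, which degrades it. CRABP2 was at 23.1, 6.97 and 17.9 TPM in ULB and at 0.325 or less in GOM (-6.26, SE 0.79, adjusted p = 0.00246), and CYP26B1 at 6.99, 1.23 and 9.45 against 0.506 to 0.958 (-3.37, SE 0.60, adjusted p = 0.0127). CRABP2 was among the largest differences, which were chosen not to overlap. CYP26B1 did not overlap between the depots, although its level in WB-ULB-2 came close to the GOM range. Leaving out 1 library left between 1 and 5 GOM calls, with 1 without BM-ULB-2 and 2 without either of the wild boar ULB libraries. The CYP26B1 call was lost without WB-ULB-1 or BM-ULB-2, while CRABP2 kept its call in each setting.

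Secreted growth regulators of the WNT and BMP pathways were mostly on the GOM side where they were called. Of 34 WNT ligands, receptors and antagonists tested, 5 were higher in GOM and 1 in ULB (17.6% called, against 4.33% of all genes). RSPO1, an R-spondin that amplifies WNT signals, was at 42.4, 18.1, 24.4 and 28.7 TPM in GOM and at 0.085, 0.496 and 0.133 in ULB (7.0, SE 0.59, adjusted p = 0.000405). The ligands WNT5A (3.32, SE 0.28, adjusted p = 0.000405), WNT5B (3.37, SE 0.68, adjusted p = 0.0235) and WNT9A (1.99, SE 0.31, adjusted p = 0.0076) and the secreted DKK3 (2.08, SE 0.49, adjusted p = 0.0427) followed, DKK3 with an overlap between the depots. The antagonist SFRP4 was the exception, at 158, 133 and 117 TPM in ULB against 7.27, 41.3, 6.61 and 8.93 in GOM (-3.18, SE 0.62, adjusted p = 0.0202). Its GOM level was highest in WB-GOM-2, still below every ULB library. The SFRP4 call was lost without BM-GOM-1, BM-GOM-2 or BM-ULB-2.

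Of 35 TGF-beta and BMP genes tested, 7 of which passed the filter through 1 depot only, 5 were higher in GOM and 0 in ULB. That is a share of 14.3%, against 4.33% of all genes. BMP3, a ligand that opposes other BMPs, was at 34.5, 19.0, 16.5 and 15.2 TPM in GOM and at 0.4 or less in ULB (6.19, SE 0.61, adjusted p = 0.000733). The BMP antagonist GREM1 was at 40.8, 12.5, 48.0 and 55.2 against 7.37, 1.72 and 0.369 (3.73, SE 0.88, adjusted p = 0.045), and the pseudoreceptor BAMBI at 16.3 to 28.0 against 2.45 to 3.85 (2.73, SE 0.29, adjusted p = 0.00104). The target gene ID1 (2.78, SE 0.59, adjusted p = 0.0281) and the ligand gene GDF5 (3.68, SE 0.88, adjusted p = 0.0465) were the other two. Without 1 library the GOM calls ranged from 2 to 6 for WNT genes and from 2 to 7 for BMP genes, reaching 2 without BM-ULB-2 in both lists and, for BMP genes, also without WB-GOM-1 or WB-ULB-2.

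Complement RNA was abundant in GOM. Of 15 tested, 6 were higher in GOM and 1 in ULB (46.7% called, against 4.33% of all genes). The list median of 0.58 was well below the values of the members called higher in GOM. C3, the central component, was at 874, 433, 417 and 569 TPM in GOM and at 12.2, 41.7 and 15.1 in ULB (4.72, SE 0.51, adjusted p = 0.00112). CFI, the protease that inactivates C3b, was at 303, 160, 108 and 195 against 5.33, 11.5 and 4.21 (4.89, SE 0.41, adjusted p = 0.000405). For both genes the lowest GOM library lay far above the highest ULB library. CFB, the alternative pathway protease, was at 104, 82.2, 17.5 and 69.1 TPM in GOM and at 2.45 to 8.61 in ULB (3.56, SE 0.65, adjusted p = 0.0147), lowest of the GOM libraries in BM-GOM-1. C4A was at 193 to 509 TPM against 36.9 to 66.1 (2.46, SE 0.51, adjusted p = 0.0262), and its reads may be shared with a near-identical copy. C7 (2.32, SE 0.55, adjusted p = 0.0446) and CLU, a chaperone that restrains the terminal complex (1.65, SE 0.27, adjusted p = 0.00808), were higher in GOM. MASP1, a lectin pathway protease, was higher in ULB (-2.36, SE 0.58, adjusted p = 0.0496), a call that leaving out any library but WB-ULB-2 removed. Summed over the list, complement RNA was at 2288 to 3441 TPM in GOM and 844 to 1099 in ULB, and GOM calls fell to 2 without WB-ULB-2 and 3 without WB-ULB-1. Complement genes, C3, C4A and CFB among them, are also made by liver, whose markers were highest in the Bama pig GOM libraries. The complement sum was 3441 and 2288 TPM in WB-GOM-1 and WB-GOM-2, and 2333 and 2432 TPM in BM-GOM-1 and BM-GOM-2. The part of liver RNA in these levels was not tested.

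Of the immune cell lists, the macrophage list had the largest share of called genes, 25.0%, where 4.33% of all genes were called. The share was 11.8% for T cell and NK cell genes, 7.14% for B and plasma cell genes and 5.56% for chemokine genes. DESeq2 called 8 of the macrophage genes and 9 of the T cell and NK cell genes, all higher in GOM. Of 16 macrophage genes, 4 were higher in GOM and 0 in ULB (median 1.34), and 11 were on the GOM side in both breeds. VSIG4, a complement receptor of resident macrophages, was at 155, 66.4, 78.1 and 64.7 TPM against 31.4, 18.0 and 14.8 (2.10, SE 0.35, adjusted p = 0.00923). TIMD4, a phosphatidylserine receptor of serosal macrophages, was at 2.59 to 11.5 TPM in GOM and at most 0.943 in ULB (3.39, SE 0.70, adjusted p = 0.0255), and C1QC was 1.54 apart (SE 0.35, adjusted p = 0.0381). MARCO, a scavenger receptor, was at 63.4 and 13.7 TPM in WB-GOM-1 and WB-GOM-2, 3.57 and 3.48 in BM-GOM-1 and BM-GOM-2, and 0.627 or less in ULB (5.17, SE 0.96, adjusted p = 0.0158). The abundant CD163 was not called (1.37, SE 0.48, adjusted p = 0.15). Without WB-ULB-1, WB-ULB-2 or BM-ULB-2 the list had 1 call each, and without WB-GOM-1 it had 2.

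Of 17 T cell and NK cell entries, 16 were on the GOM side in both breeds with a median of 1.68, but 2 were called. These were CD2 (1.68, SE 0.36, adjusted p = 0.0285), an adhesion molecule of T cells, and CD4 (2.24, SE 0.54, adjusted p = 0.0483), the helper T cell coreceptor. CD2 was at 14.8, 6.80, 21.4 and 20.4 TPM in GOM and 4.90, 4.70 and 3.21 in ULB, and IL7R, the interleukin 7 receptor gene, had a log2 fold change of 2.17 without a call (adjusted p = 0.075). Calls in this list fell to 0 without WB-GOM-1, BM-GOM-1, WB-ULB-1 or BM-ULB-2, to 1 without WB-ULB-2, and stood at 4 without WB-GOM-2. In all genes, log2 values above 0 in both breed contrasts were found for 35.9%. JCHAIN, which links secreted antibodies, was the 1 called gene of 14 in the B and plasma cell list, whose median was 0.10 (0.40 in wild boar and -0.40 in Bama pig), at 99.6, 247, 190 and 184 TPM in GOM and 46.3, 61.6 and 19.3 in ULB (2.27, SE 0.39, adjusted p = 0.0109). The chemokine receptor gene CXCR4 (1.84, SE 0.38, adjusted p = 0.0264) was the call of 18 chemokine genes. The JCHAIN list had 0 calls without WB-GOM-2 or BM-ULB-2, and the chemokine list had 0 without WB-GOM-2, WB-ULB-1 or BM-ULB-2 and 3 in each direction with DESeq2. All 12 MHC genes were higher in GOM in both breeds, with a median of 0.80 and 0 called, and their sum was 1561 to 2035 TPM in GOM and 865 to 1052 in ULB. SLA-DQB1, a class II gene, had a log2 fold change of 1.07 (adjusted p = 0.10). Of 21 interferon-stimulated genes, 0 were called.

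Collagen RNA was more abundant in ULB. Collagen transcripts summed to 6299 to 7733 TPM in the 3 ULB libraries and to 3323 to 3875 in the 4 GOM libraries, with no overlap. Of 32 collagen genes tested, 5 were higher in ULB and 1 in GOM (18.8% called, against 4.33% of all genes), with a median of -0.66. COL6A3, a chain of the microfibrillar collagen around fat cells, was at 334, 389 and 343 TPM in ULB and 84.8, 72.3, 143 and 78.7 in GOM (-2.04, SE 0.31, adjusted p = 0.00629). COL12A1 (-2.23, SE 0.54, adjusted p = 0.0484), COL16A1 (-1.33, SE 0.25, adjusted p = 0.0175), COL6A6 (-1.78, SE 0.42, adjusted p = 0.0452) and COL25A1 (-2.84, SE 0.67, adjusted p = 0.0452) were called too. COL4A6, a basement membrane chain, was higher in GOM (2.42, SE 0.39, adjusted p = 0.0083). The abundant fibrillar chains were not called, COL3A1 at -1.26 (SE 0.46, adjusted p = 0.16) and COL1A2 at -1.42 (SE 0.39, adjusted p = 0.076). The ULB calls fell to 1 without WB-ULB-1, to 2 without WB-GOM-1, WB-GOM-2 or WB-ULB-2 and to 3 without any other.

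Of 27 matrix enzymes, 2 were higher in ULB and 2 in GOM (14.8% called, against 4.33% of all genes). The GOM calls fell to 0 without WB-GOM-2, BM-GOM-1 or WB-ULB-1 and to 1 without WB-GOM-1, WB-ULB-2 or BM-ULB-2. Those on the ULB side fell to 1 without WB-GOM-2, WB-ULB-1 or BM-ULB-2. LOX, which crosslinks collagen and elastin, was at 238, 289 and 121 TPM in ULB against 38.0 to 87.3 in GOM (-1.87, SE 0.30, adjusted p = 0.00868), and MMP2, a gelatinase, at 390 to 500 against 52.8 to 164 (-1.99, SE 0.39, adjusted p = 0.0208). TGM2, a protein crosslinking transglutaminase, was higher in GOM (2.13, SE 0.52, adjusted p = 0.0495), as was P4HA2, a collagen prolyl hydroxylase subunit gene (1.14, SE 0.28, adjusted p = 0.0489). Adipose progenitor and fibroblast genes had 2 of 17 called on each side (23.5% for both sides together, against 4.33% of all genes). The ULB side stayed at 2 calls without any 1 library, and the GOM side fell to 0 without WB-GOM-1, WB-ULB-1 or WB-ULB-2 and to 1 without WB-GOM-2, BM-GOM-1 or BM-ULB-2. FAP, a protease of activated fibroblasts, was at 185, 192 and 162 TPM in ULB and 38.0 to 62.3 in GOM (-2.06, SE 0.26, adjusted p = 0.00238), while PI16, a marker of fascia-like progenitors, was at 34.1 to 178 in GOM and 18.3 to 27.6 in ULB (2.08, SE 0.45, adjusted p = 0.0316).

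Of 15 mature adipocyte genes and adipokines, 1 was called in each direction (13.3%, where 4.33% of all genes were called), with a median of 0.06. The retinol carrier RBP4, named above, was the gene on the GOM side, a call lost without WB-ULB-2 or BM-ULB-2. LEP, the satiety hormone leptin, was at 147, 254 and 156 TPM in ULB and 58.3, 52.1, 73.6 and 143 in GOM (-1.38, SE 0.33, adjusted p = 0.0465). Its BM-GOM-2 level came close to the lowest ULB library, and its call was lost without any library but BM-GOM-2. ADIPOQ (-0.23, SE 0.37, adjusted p = 0.76), the lipid droplet coat gene PLIN1 (-0.12, SE 0.32, adjusted p = 0.86), the fatty acid carrier gene FABP4 (-0.52, SE 0.35, adjusted p = 0.43) and the lipase gene LPL (-0.19, SE 0.39, adjusted p = 0.81) were not called, and these errors set the size of difference that could have been seen. Among adipogenic factors, 2 of 18 were higher in ULB, 1 of them without WB-GOM-1, WB-GOM-2, WB-ULB-1 or BM-ULB-2, including PPARGC1A, a coactivator of mitochondrial biogenesis, at 5.05, 3.24 and 4.57 TPM in ULB against 0.32 to 1.01 in GOM (-3.05, SE 0.43, adjusted p = 0.00483). The other was EBF3 (-1.73, SE 0.33, adjusted p = 0.017), and PPARG, the master regulator, had a log2 fold change of -0.16 (SE 0.27, adjusted p = 0.78).

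Lists of lipid metabolism held no call, beside a share of 4.33% over all genes. That was so for 20 fatty acid synthesis genes, 18 lipolysis genes, 19 fatty acid oxidation genes, 14 uptake genes, 15 insulin and glucose uptake genes and 19 cholesterol synthesis genes. The synthesis list had the widest median of them, 0.68. FASN, the fatty acid synthase, was at 778, 2581, 1394 and 1064 TPM in GOM and at 644, 539 and 211 in ULB, without overlap, yet did not pass the test (1.89, SE 0.52, adjusted p = 0.0756). The desaturase gene SCD pointed to the other side without a call (-1.34, SE 0.62, adjusted p = 0.26). Blood endothelial (18), lymphatic (9), IGF (15), circadian (18), cytosolic ribosomal (49) and nuclear respiratory chain (58) genes had 0 calls each.

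Lists of other tissues held 0 or 1 call each. Where there was 1 call, the share called was 5.56% (liver) to 16.7% (mast cell and granulocyte). Of all genes, 4.33% were called. Muscle markers had 1 call of 13, ACTN3, a fast-fibre actinin, on the ULB side (-6.27, SE 1.31, adjusted p = 0.0264), with a list median of -3.60 that became -1.26, with 0 calls, without WB-ULB-1. ACTA1, the skeletal actin gene, was at 114 TPM in WB-ULB-1 and at 3.55 or less in the other libraries (adjusted p = 0.0645). Liver markers had 1 call of 18, the iron carrier gene TF (2.51, SE 0.61, adjusted p = 0.0495), while ALB was not called (adjusted p = 0.116). Red blood cell genes had 0 calls of 4, with HBB at 171 to 12501 TPM in GOM and 344 to 2299 in ULB. Schwann cell markers had 1 call of 9, on the ULB side, smooth muscle markers 1 on the GOM side, LMOD1 (1.37, SE 0.30, adjusted p = 0.0318), and mast cell and granulocyte genes 1, the neutrophil gene S100A8 (3.40, SE 0.59, adjusted p = 0.0118). Of 15 steroid and glucocorticoid genes, the progesterone receptor gene PGR was called higher in GOM (2.10, SE 0.38, adjusted p = 0.0143), and of 17 immediate early genes, FOSB was called higher in ULB (-2.73, SE 0.62, adjusted p = 0.0383). The single calls of the liver, Schwann cell, smooth muscle, steroid and immediate early lists were each lost without BM-ULB-2, without 1 of the wild boar GOM libraries and without at least 1 other library, and that of the mast cell and granulocyte list was lost without BM-ULB-2. The 7 pancreas and gut genes and the 1 tested keratinocyte gene had 0 calls. DESeq2 called more of these markers, with 6 of the 13 muscle markers higher in ULB. On the GOM side it called 4 of the 18 liver markers and 3 of the 4 red blood cell genes.

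**Figure D3:**
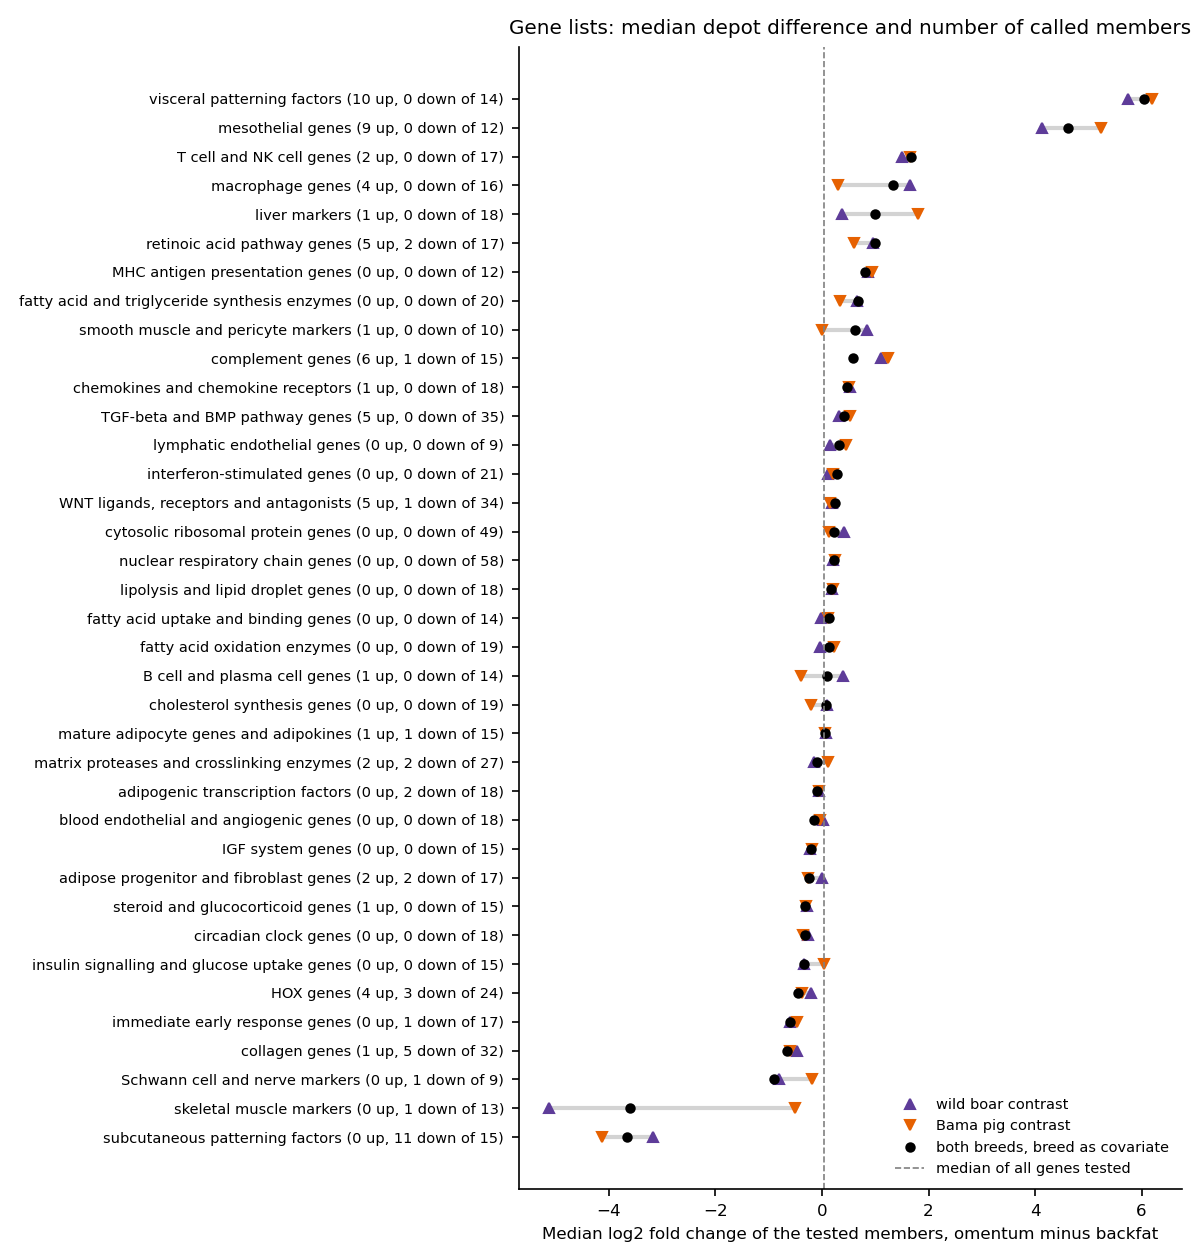
Median log2 fold change, GOM minus ULB, of the tested members of each gene list (horizontal axis), from the fit of both breeds (black), the wild boar contrast (purple) and the Bama pig contrast (orange), with the number of members called in brackets (up is higher in GOM, down is higher in ULB). The visceral factors at 6.05 and mesothelial genes at 4.62 stand apart at one end and the subcutaneous factors at -3.66 at the other, while the muscle list differs between breeds, at -5.12 in wild boar and -0.51 in Bama pig.

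Whether the depot differences held in both breeds was examined next. All 438 genes called higher in GOM and all 244 called higher in ULB had the same direction in the wild boar and in the Bama pig contrast, where 35.9% and 29.7% of all genes lay on the same side in both breeds. Since the same libraries gave the calls, this agreement was partly fixed by the choice. The difference exceeded 1 on the log2 scale in both breeds for 410 and 214 of them. A split that the call did not use was the wild boar contrast alone, which called 215 genes higher in GOM and 129 higher in ULB (1.37% and 0.82% of tested genes). The Bama pig libraries had no part in that test, but they did count in the filter on low values. For genes that passed the filter through a single depot, the direction in Bama pig was therefore partly fixed. In the Bama pig libraries, 209 of the 215 (97.2%) and 120 of the 129 (93.0%) had the same direction. Of all genes of that direction in wild boar, 67.2% and 63.7% did so. Both Bama pig GOM libraries lay above the ULB library for 199 of the 215 and below it for 115 of the 129, where 33.9% and 32.7% of all genes did so. The median difference of these genes was smaller in Bama pig, 2.38 against 3.32 for the GOM side and -1.45 against -2.67 for the ULB side, with the wild boar values being those that chose the genes.

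A breed by depot interaction was called for 0 genes by edgeR, with a smallest adjusted p of 0.168, while 730 genes (4.64%) had an unadjusted p below 0.05 and DESeq2 called 42. Of the 682 depot genes, 51 (7.48%) had an unadjusted interaction p below 0.05. They included MARCO (6.57 in wild boar and 2.30 in Bama pig) and TGM2 (3.14 and 0.79), each with an adjusted p of 0.97 for the difference, and GREM1 (2.67 and 6.63, adjusted p = 0.983). With a single Bama pig ULB library these values do not show that the breeds were alike. Macrophage genes had a list median of 1.65 in wild boar and 0.29 in Bama pig, and the difference between these medians was not tested.

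**Figure D4:**
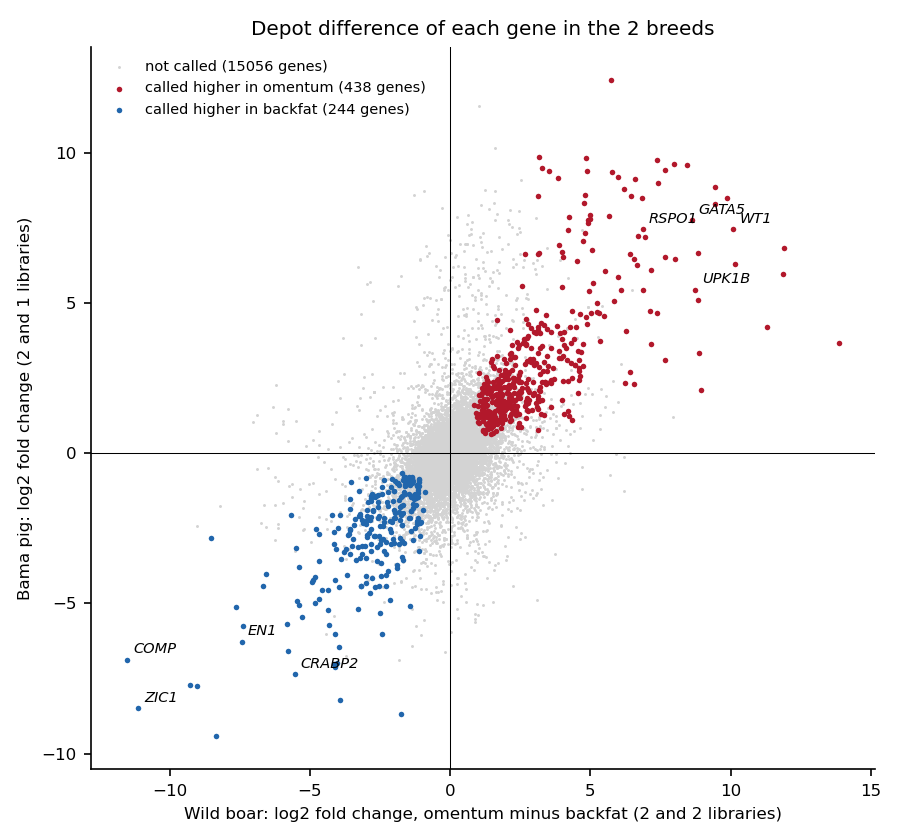
Log2 fold change, GOM minus ULB, of each of 15738 tested genes in wild boar (horizontal axis, 2 and 2 libraries) and in Bama pig (vertical axis, 2 and 1 libraries), with genes called higher in omentum in red (438) and in backfat in blue (244). The called genes occupy the quadrants where both breeds have the same direction.

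The Hi-C libraries of the same depots gave a second measurement that the expression calls did not use. Hi-C records contacts between stretches of chromatin, and the deposited score of each 20-kb bin is higher towards compartment A, where genes are dense and commonly active, and lower towards compartment B. The files call it an A-B index, which the methods define as contacts with A regions minus contacts with B regions. Its mean was 0 over each chromosome of each library (within 7.36e-14), a property of the first principal component that the methods also describe, and which of these the files hold was not settled. A total of 11326 tested genes had a score in the bin of their start site in 4 GOM and 3 ULB Hi-C libraries. For 341 genes called higher in GOM, the score was positive in 81.2% to 83.0% of genes in the GOM libraries and 72.1% to 76.8% in the ULB libraries. For 188 genes called higher in ULB, the shares were 54.3% to 60.1% in GOM and 62.2% to 68.6% in ULB. Genes without a call were at 86.3% to 89.9% in all 7 libraries.

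All 4 GOM scores lay above all 3 ULB scores for 101 of the 341 genes higher in GOM (29.6%), where 8.65% of all genes did so, and below for 8 (2.35%, against 5.54%). Of the 188 genes higher in ULB, 52 (27.7%) lay below in this sense and 6 (3.19%) above. The median GOM minus ULB score was 3.62 in wild boar and 4.88 in Bama pig for the GOM side and -3.03 and -4.89 for the ULB side, against 1.00 and -0.28 for all genes. Nearby genes share bins, so these shares describe the genes without a test.

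WT1 showed the change of sign, at 19.9, 21.0, 25.6 and 35.6 in GOM and -5.41, -7.61 and -11.8 in ULB. The bin of ZIC1 was at -32.6, -25.1, -26.3 and -32.2 in GOM and at 4.19, -8.27 and -10.7 in ULB, and EN1 at 4.00, 5.03, -2.77 and -3.52 in GOM and 26.6, 21.5 and 24.8 in ULB. FGF10 was at -24.3 to -17.9 in GOM and at -4.44 to 1.25 in ULB. GATA5, by contrast, lay in compartment A throughout, at 31.9 to 33.8 in GOM and 23.4 to 26.7 in ULB. Of the called genes with a score in the opposite order, SERPINB2 and MARCO were higher in GOM in expression and had lower scores there, and PPARGC1A was higher in ULB with lower scores there.

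**Figure D5:**
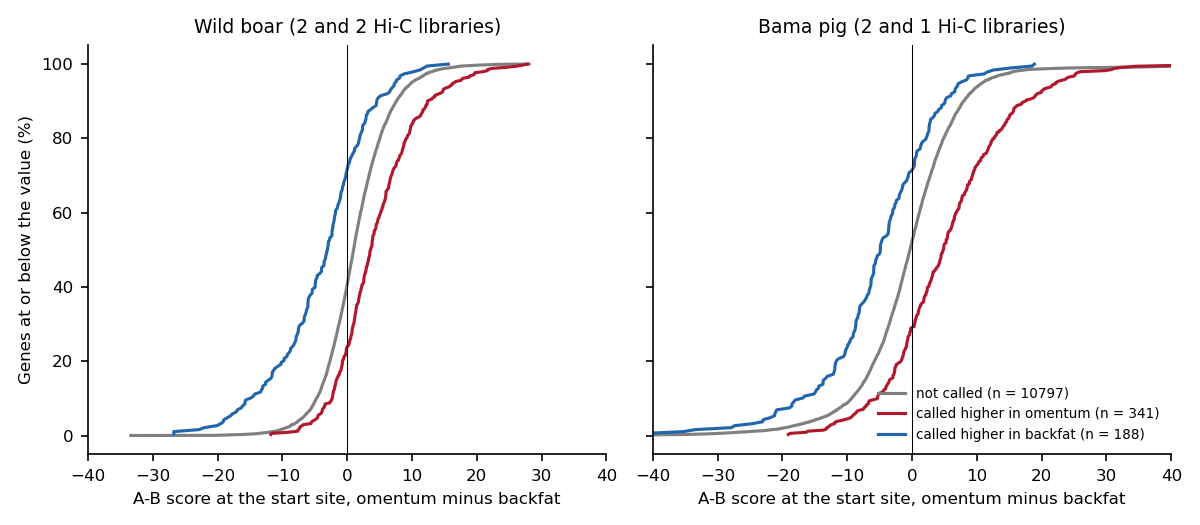
Cumulative percentage of genes (vertical axis) at or below each difference in A-B score at the start site, GOM minus ULB (horizontal axis, score units, with values beyond the axis limits not drawn), in wild boar (left) and Bama pig (right), for genes higher in omentum (red, n = 341), higher in backfat (blue, n = 188) and not called (grey, n = 10797). In both breeds the red line lies to the right of the grey and the blue line to the left, with medians of 3.62 and -3.03 in wild boar and 4.88 and -4.89 in Bama pig.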

How the data were processed

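RNA was measured in 7 libraries, 4 of GOM and 3 of ULB, prepared with ribosomal RNA depletion and a strand-specific kit, and sequenced in 150-bp pairs. The deposited estimated counts and TPM values per protein-coding gene were made by the authors with Kallisto against Sscrofa11.1 with its Ensembl annotation, and the submitters' processing notes name kallisto 0.43.0. Kallisto was run with default parameters, which do not use the strand, so overlapping and antisense genes, and near-identical copies, are uncertain. The authors' Hi-C score per 20-kb bin was derived from normalized contact maps, as an A-B index by the name of the files or as a first principal component by its mean of 0. The lists of domain boundaries were not used, and BM-ULB replicate 1 was not analysed here.

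Counts were rounded, scaled by TMM and fitted with edgeR 4.0.16 (quasi-likelihood test) in R 4.3.3 with breed and depot as terms, over genes with TPM above 0.1 in all libraries of at least one depot, and p-values were adjusted by the Benjamini-Hochberg method over all 15738 genes. Calls needed an adjusted p below 0.05 together with a log2 fold change beyond 1 in either direction. The SE of a fold change is its size divided by the square root of the F statistic, and p-values are two-sided. Depot contrasts within each breed and their difference came from a fit of the 4 groups. The wild boar and Bama pig libraries were also fitted alone. Named genes were the 15 of largest fold change in each direction among called genes that had symbols, did not overlap between depots and averaged 1 TPM or more in the higher one, plus called members of 41 gene lists and their most abundant members. The members and lists were chosen with earlier results of these data known, so lists are described by counts and medians. Gene positions and promoters were taken from RefSeq on Sscrofa11.1 by symbol, which placed 11719 tested genes (74.5%), and the 18 autosome lengths matched those of the Hi-C bins. Values of a few called genes are not reported here. The code was tested on simulated data. Alternatives were DESeq2 1.42.0, other normalizations and filters, limma 3.58.1 on log2(TPM + 0.1) and log2(TPM + 1), a replicate block, no breed term, and leaving out each library. Totals of 10833153 to 18627076 counts per library set the counting precision.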

Additional observations from a re-analysis of the deposited data

Results flagged for a closer look

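Of 70 groups of 4 GOM libraries examined (named genes and list sums), 11 had a library whose gap to its nearest neighbour relative to the range of the group was above Dixon's 95% limit for 4 samples. Chance alone flags about 1 in 20 groups where values are normally distributed and come from a single population. These TPM values came from both breeds and included libraries at 0, so that rate may not hold. The 11 of 70 are therefore not shown to be an excess. Library WB-GOM-2 stood apart for TCF21 at a TPM of 3.07, the low side of the group, and for ANGPTL5 at 0.353 and IRX1 at 0.882, the high side. WB-GOM-1 was high for UPK1B at 104 TPM and for the summed complement genes at 3441 TPM. BM-GOM-2 was high for IRX2 at 0.0574, RXFP2 at 0.237 and DMC1 at 0.161, and for the summed lipolysis genes at 5460 TPM. BM-GOM-1 was high for MMP1 at 0.111 and for the summed skeletal muscle markers at 135 TPM.

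For ANGPTL5, IRX2, MMP1 and DMC1 the other 3 GOM libraries were listed at 0, so a value of a few reads is enough to stand apart. The examined genes had been chosen for depots that did not overlap, so the absence of overlap in the flagged genes is not a result. The depot differences of IRX1, MMP1 and DMC1 had a lost call in at least 1 alternative, as given above.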

How the results depend on the processing

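No gene of the 682 called changed direction under any alternative. Genes higher in GOM numbered 438, and 850 with DESeq2, 223 without the breed term and 170 to 491 when 1 library was left out, with 231 without WB-GOM-1, 174 without WB-ULB-1, 206 without WB-ULB-2 and 170 without BM-ULB-2. Genes higher in ULB numbered 244, and 513 with DESeq2, 123 without the breed term and 74 to 234 when 1 library was left out, with 146 without WB-GOM-1, 158 without WB-GOM-2, 102 without WB-ULB-1, 138 without WB-ULB-2 and 74 without BM-ULB-2. Of the 682, 672 were called by DESeq2. With no filter on low values 639 and 360 genes were called, both within 1.5 times, as were those under upper-quartile scaling, a minimum TPM of 1 and both limma fits. The interaction, called for 0 genes, gave 42 with DESeq2, 7 with no filter on low values, 4 with limma on log2(TPM + 0.1), 3 on log2(TPM + 1) and 0 to 1 without 1 library, and BM-ULB-2 cannot be left out there. Wild boar alone (344 genes) gave 1303 with DESeq2, 1523 with the replicate block and 65 to 369 without 1 library, a choice added after seeing the data. Bama pig alone (284 genes) gave 32 in the contrast from all 7 libraries. The cause of these changes was not tested.

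The labels do not say that replicate numbers mark animals. With the replicate block 446 and 221 genes were called, 537 of them among the 682, and deviations of same-numbered wild boar libraries had a correlation of 0.199, which is a single independent value. Over named genes and settings, 3080 results kept their direction and side of the threshold, 322 lost and 58 gained a call, and 104, all of uncalled genes, changed sign. Depth limits genes with few reads, and 1 Bama pig ULB library limits the breed contrast.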
